A study of Mus musculus with 38 samples.

Results

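Nr4a1, Crem, Sik1 and Fos are early genes of the cyclic AMP pathway, and the regions around them were read from chromatin immunoprecipitation maps of mouse liver and isolated mouse hepatocytes. A region was counted when it overlapped the mm9 span of 1 of these genes extended by about 50 kb on each side: chr15:101034000-101156000 for Nr4a1, chr18:3216000-3388000 for Crem, chr17:31931000-32043000 for Sik1 and chr12:86764000-86869000 for Fos. Of 278566 regions in 11 deposited lists, 207 met this rule, 56 at Nr4a1, 46 at Crem, 66 at Sik1 and 39 at Fos.

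Glucagon, released during fasting, raises cyclic AMP in the hepatocyte, and protein kinase A then phosphorylates CREB, the transcription factor named for the cAMP response elements it binds. Phosphorylated CREB and its CRTC coactivators switch on a set of genes within minutes. Nr4a1 encodes an orphan nuclear receptor that promotes hepatic glucose output. Crem encodes a relative of CREB, and an internal promoter of the gene yields the repressor ICER, which shuts cAMP responses down. Sik1 encodes a kinase that phosphorylates CRTC coactivators and keeps them out of the nucleus. Fos encodes a subunit of the AP-1 transcription factor.

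The liver samples came from C57BL/6 mice, either fed or fasted. H3K27ac, the acetylated form of a histone H3 lysine that is found at active enhancers and promoters, was mapped in fed liver and after 10 h and 24 h without food, and CREB and its serine-phosphorylated form (phospho-CREB) in fed and 24 h fasted liver, with 3 samples in each of these 7 groups. Hepatocytes were left untreated (CREB, 1 sample), given 10 nM glucagon for 1 h (CREB, 2 samples), or given 10 nM glucagon with 1.7 uM corticosterone for 1 h (CREB and the glucocorticoid receptor, GR, 2 samples each). The other 4 of the 15 groups, with 10 of the 38 samples, were not analysed here. Whole liver holds several cell types, and no expression values were available with which to check the cells by their markers.

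Each group had 1 list, which gave a single highest tag density per region and no value per library. No spread between samples could therefore be computed, and no test was run: every difference below lies between lists. Depth was not given in the sources used here. Lists held 6812 to 47777 regions. Within a list, rank 1 is the densest region, and a rank is also given as a percent of the list, so that a low percent means a dense region. A region of one list was paired with a region of another when they shared at least 1 base, and a pair was said to rank higher or lower when its percentile, among the regions that both lists share, moved by 10 points or more. Sites are named by the distance of their midpoint from the 5' edge of the gene, positive towards the 3' end, and the coordinates given for a site span the merged regions of all lists. These edges are the window less 50 kb and so are approximate, and exons and introns were not assigned.

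Of the 4 genes, 2 (Nr4a1 and Fos) had a promoter in the RefSeq table of build GRCm38.p6, which runs from 250 bases before to 50 bases after a start site. They are shown because CREB binds the element TGACGTCA and, less tightly, the shorter TGACG. Both genes carry CREB regions in every CREB list, as do Crem and Sik1, which had no promoter in the table. Capitals mark TGACG or, on the other strand, CGTCA.
Nr4a1: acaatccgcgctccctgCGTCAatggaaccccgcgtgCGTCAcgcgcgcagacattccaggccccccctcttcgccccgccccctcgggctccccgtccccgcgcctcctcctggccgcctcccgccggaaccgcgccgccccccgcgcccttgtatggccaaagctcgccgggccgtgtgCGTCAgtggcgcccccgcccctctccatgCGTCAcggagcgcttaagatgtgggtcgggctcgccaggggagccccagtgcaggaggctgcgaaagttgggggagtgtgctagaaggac
Fos: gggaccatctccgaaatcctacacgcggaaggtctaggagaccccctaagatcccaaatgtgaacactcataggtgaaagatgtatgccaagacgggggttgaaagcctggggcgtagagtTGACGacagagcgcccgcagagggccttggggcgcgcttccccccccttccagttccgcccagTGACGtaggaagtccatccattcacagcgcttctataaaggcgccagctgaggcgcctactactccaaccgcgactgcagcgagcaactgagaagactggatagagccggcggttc

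The Nr4a1 promoter held CGTCA 4 times, beginning at -233, -213, -69 and -40 counted from the start site. The Fos promoter held TGACG 2 times, at -129 and -66. Neither window held TGACGTCA. Of 32851 promoters of the same length, 20.8% held TGACG on either strand, 5.01% held it 2 or more times, 0.231% held it 4 or more times, and 1.79% held TGACGTCA. Of 16 other cAMP-responsive genes listed for comparison, 15 were in the table, 11 of these held the short element and 1 held TGACGTCA. A gene was counted here when any of its promoters held the element, whereas the percentages above are per promoter. Nr4a2 and Nr4a3, the other members of the Nr4a receptor family, held the short element 4 times each, as Nr4a1 did. Dusp1, a phosphatase gene, held TGACGTCA. On GRCm38.p6 the tabulated Nr4a1 start lies 12.9 kb inside the annotated gene, whereas the Fos start lies at its edge (0.0 kb). The mm9 CREB site named Nr4a1 +13.1 kb ran from 12.4 to 13.8 kb past the approximate 5' edge. The builds were not joined, so no sequence was placed on a region.

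The CREB, phospho-CREB and GR regions of 8 lists merged into 41 sites, 12 at Nr4a1, 8 at Crem, 14 at Sik1 and 7 at Fos. Of these, 11 were in at least 1 liver list and 30 were in hepatocyte lists only, while 11 were in a single list. GR was at 17 sites, and 20 sites lay in an H3K27ac region of liver. The same shares over all sites of the 8 lists were not computed. The hepatocyte CREB lists held 28229 to 47596 regions, and the liver CREB and phospho-CREB lists 6812 to 13142. The larger number of hepatocyte-only sites is therefore not a result about these loci. The 3 sites found in all 8 lists were Nr4a1 -6.9 kb, Crem +0.4 kb and Crem +56.7 kb. They were 3 of the 11 fed liver CREB regions at these loci, against 84 of 13142 (0.639%) over the whole fed liver CREB list. The map of the 4 loci shows these shared positions as columns, with Sik1 adding a cluster of hepatocyte regions upstream and Fos holding 1 GR region.

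**Figure D1:**
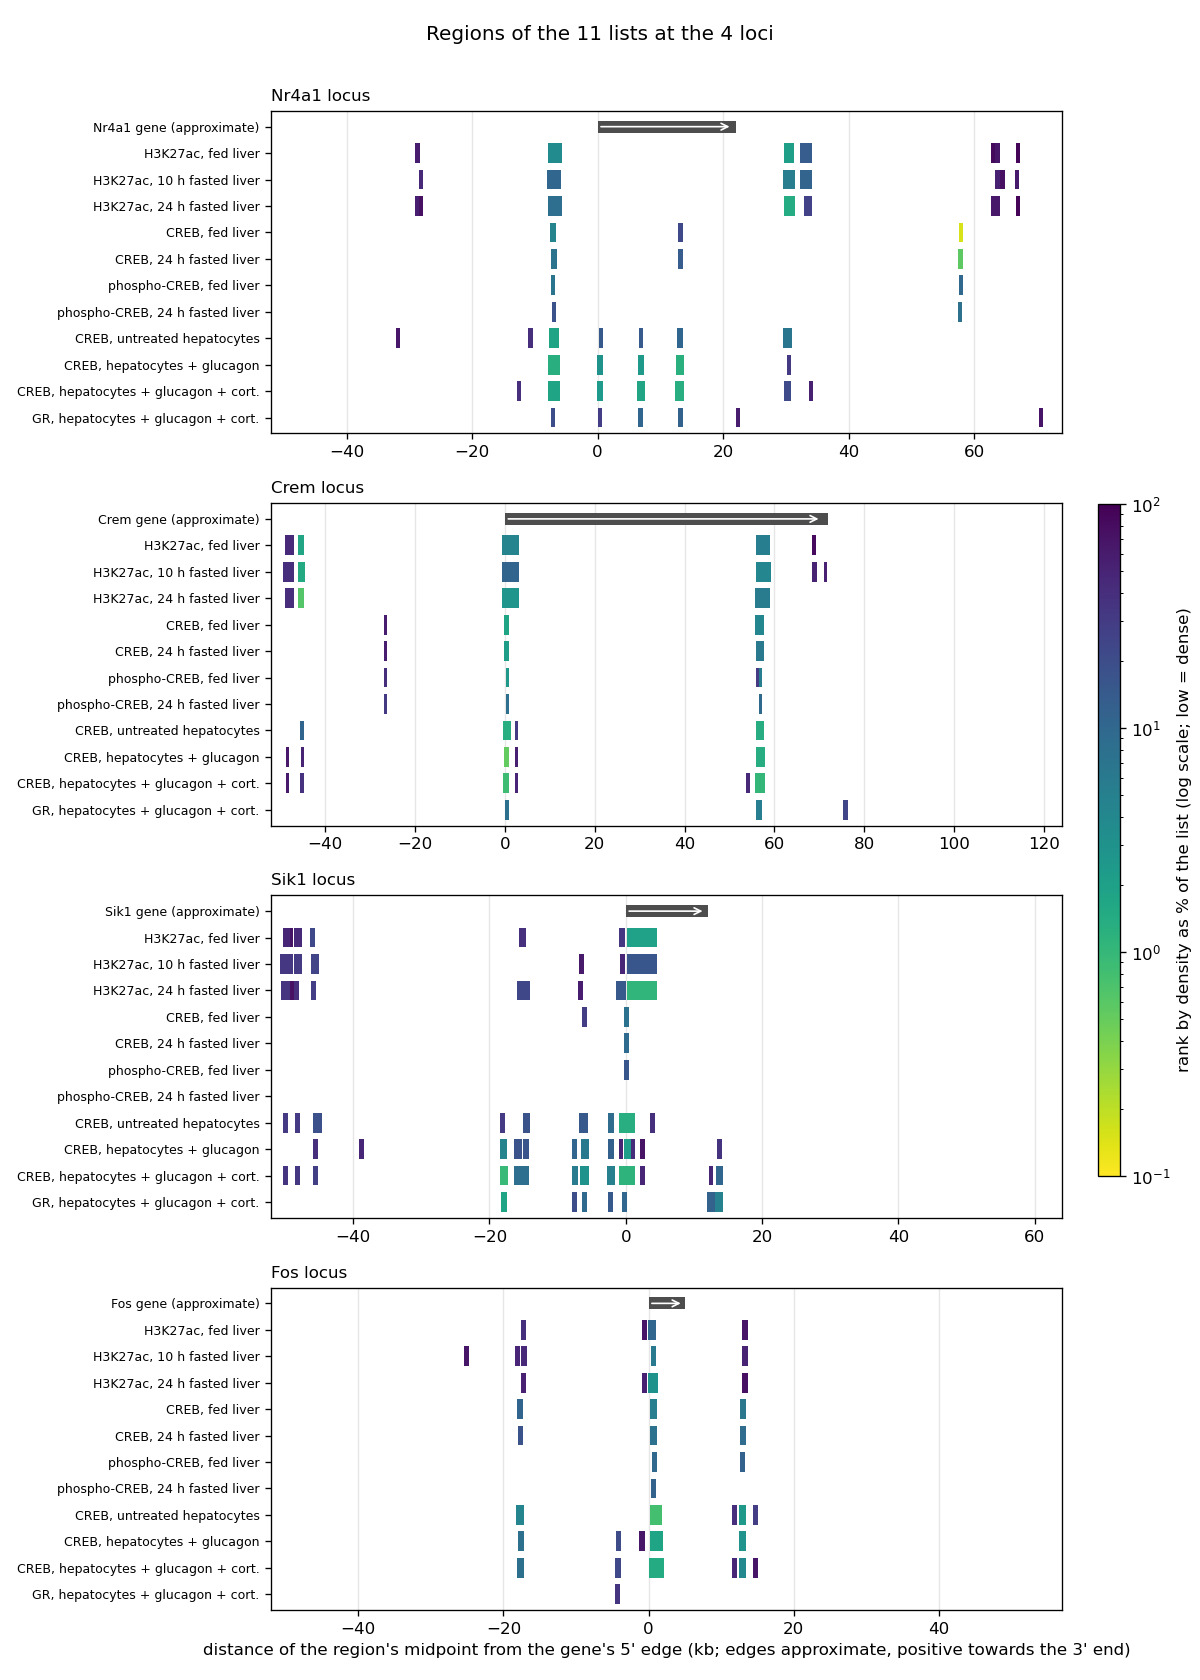
Regions of 11 lists at the 4 loci by distance of the region's midpoint from the gene's 5' edge in kb (x axis) and list (rows), coloured by rank as a percent of the list on a log scale; the grey bar is the approximate gene, and bars narrower than 0.7 kb are drawn at that width. The Crem window shows 2 columns of dense CREB regions, at +0.4 and +56.7 kb, and Fos has 1 GR region.

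Regions at these loci were often among the densest of their list. In fed liver 7 of 11 CREB regions were in the upper 10% of the list, which holds 10.0% of all regions by construction, and in fasted liver 7 of 10 (9.99% of the list). For phospho-CREB these counts were 5 of 9 in fed and 3 of 6 in fasted liver (10.0% of each list). In hepatocytes they were 9 of 25 untreated (10.1%), 12 of 28 with glucagon (10.0%) and 15 of 31 with both hormones (10.0%), and for GR 5 of 17 (10.1%). H3K27ac had 6 of 23 such regions in fed liver, 4 of 24 at 10 h and 7 of 23 at 24 h (10.0% each). By z-score in place of density, no phospho-CREB region of fasted liver (0 of 6) and 1 of 17 GR regions was in the upper 10%.

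In the hepatocyte lists, sites at the 4 loci differed in how their rank varied by hormone. Fos and Crem had CREB regions that were already among the densest without hormone. Nr4a1 and Sik1 in addition had sites that were outside the upper 10% of the untreated list and nearer the top of the list with both hormones. The untreated list came from 1 library, so that this contrast rests on it. Over the 4 loci 6 of 18 shared pairs ranked higher with glucagon, against 24.6% of all pairs. That count depended on the ranking, as given below.

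At Nr4a1 the change was inside the approximate span of the gene. The tabulated start given above lies 12.9 kb into the GRCm38.p6 gene. That offset falls within the site at +13.1 kb, and the sites at +0.4 and +6.9 kb lie at smaller offsets. The site at +0.4 kb (chr15:101083898-101084900) was at rank 6830 of 47596 (14.4%) in untreated cells, 841 of 28229 (2.98%) with glucagon and 978 of 42090 (2.32%) with both hormones. The site at +6.9 kb (chr15:101090282-101091487) was at 6731 (14.1%), 694 (2.46%) and 726 (1.73%). The site at +13.1 kb (chr15:101096403-101097815) was at 4875 (10.2%), 351 (1.24%) and 556 (1.32%). All 3 ranked lower in the untreated list than in both hormone lists, and among regions shared with the glucagon list they moved up by 28.4, 28.7 and 21.8 percentile points. Liver H3K27ac regions covered none of the 3, and the sites at +0.4 and +6.9 kb were in no liver list. The upstream site at -6.9 kb (chr15:101076093-101078046) was dense throughout, at 840 (1.77%), 360 (1.28%) and 751 (1.78%). The site at +30.3 kb went the other way, from 3201 (6.73%) in untreated cells to 8688 (30.8%) with glucagon and 8836 (21.0%) with both hormones.

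At Sik1 the change was upstream. The site at -17.9 kb (chr17:32010310-32011503) was at rank 14177 (29.8%) in untreated cells, 1292 (4.58%) with glucagon and 403 (0.958%) with both hormones. Its percentile among shared regions was 54.3 points higher with glucagon than without, more than at any other of the 18 pairs at these loci. The site at -6.1 kb (chr17:31998414-31999802) was at 7144 (15.0%), 1711 (6.06%) and 1291 (3.07%). The site at -15.2 kb (chr17:32007060-32009383), 1 region in untreated cells and 2 with glucagon, was at 8076 (17.0%), 4717 (16.7%) and 3530 (8.39%), 15.2 points higher with glucagon among shared regions although its percent of the whole list was nearly equal.

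Some Sik1 sites were absent from the untreated list. The site at -7.5 kb (chr17:32000060-32000978) was at 2894 (10.3%) with glucagon and 2453 (5.83%) with both hormones. The site at +13.7 kb (chr17:31978705-31979798), just past the 3' end, was at 10362 (36.7%) and 4433 (10.5%), which is 24.2 percentile points higher with both hormones than with glucagon alone. At the start of the gene, in contrast, the site at +0.2 kb (chr17:31991642-31994034) was dense in all 3 lists, at 622 (1.31%), 599 (2.12%) and 487 (1.16%). The site at -2.2 kb (chr17:31994679-31995785) was at 4203 (8.83%), 3471 (12.3%) and 2141 (5.09%), which stayed within 10 points in each comparison.

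At Crem and Fos the leading sites were near the top of all 3 lists. The Crem site at +0.4 kb (chr18:3336630-3338510) was at 631 (1.33%), 149 (0.528%) and 360 (0.855%), and the site at +56.7 kb (chr18:3280199-3282367) was at 637 (1.34%), 377 (1.34%) and 438 (1.04%). The Fos site at +1.1 kb (chr12:86814149-86816096) was at 376 (0.79%), the best rank at these loci in the untreated list, 494 (1.75%) and 618 (1.47%). Fos +13 kb (chr12:86826516-86827523) was at 1132 (2.38%), 809 (2.87%) and 1638 (3.89%), and Fos -17.7 kb (chr12:86795822-86796837) at 2068 (4.35%), 2239 (7.93%) and 3396 (8.07%). None of these 5 sites moved by 10 percentile points among shared regions in any comparison of the 3 lists. Among regions shared with the glucagon list, Fos -17.7 kb stood at percentile 89.97 in untreated cells and the others at 94.51 or higher. A rise of 10 points was thus nearly or wholly out of reach, and the rule could in effect show falls only. Among shared regions, the rank fraction of Crem +0.4 kb was 4.18-fold nearer the top with glucagon than without, and with both hormones it was 0.378 times as near the top as with glucagon alone. A weaker Crem site at -45.1 kb went from 5151 (10.8%) to 14014 (49.6%) and 15617 (37.1%).

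**Figure D2:**
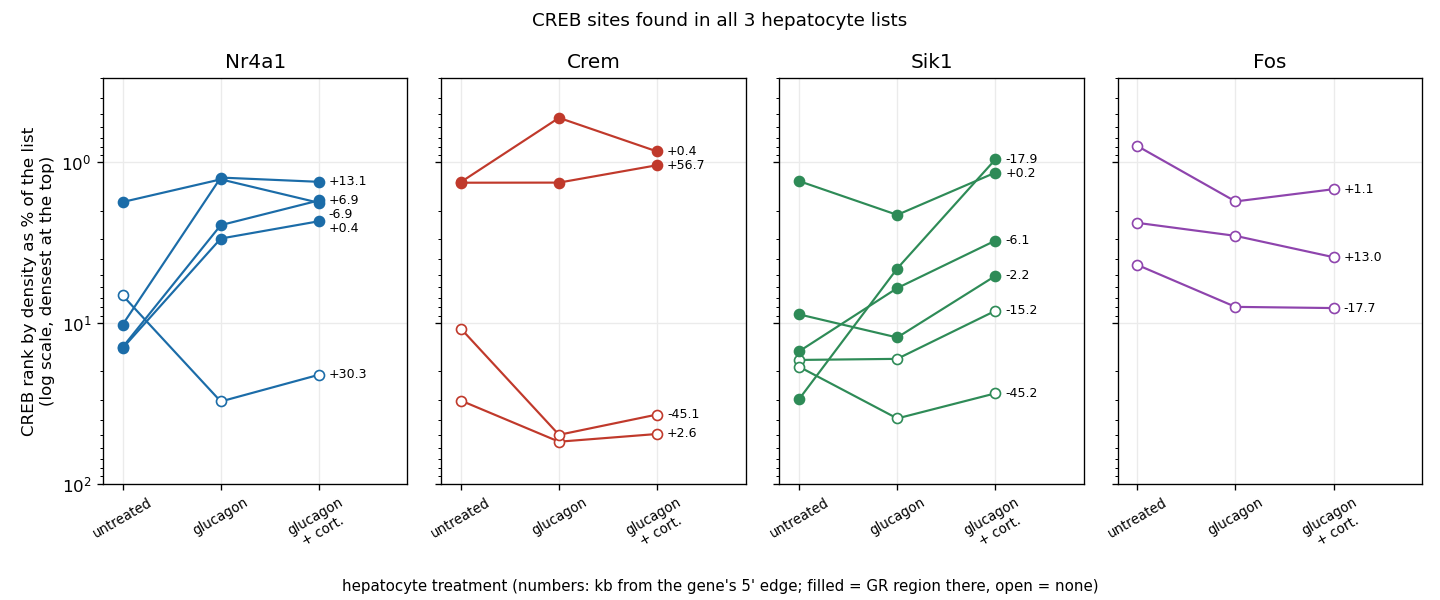
CREB rank as a percent of the list (y axis, log scale, densest at the top) in untreated, glucagon and glucagon plus corticosterone (cort.) hepatocytes for sites found in all 3 lists, 1 panel per gene, with numbers giving the distance from the 5' edge in kb; filled points have a GR region and open points none. At Nr4a1 the 3 sites inside the approximate gene span go from 10.2% to 14.4% of the untreated list to 1.24% to 2.98% of the glucagon list, and the Fos sites stay in the upper 10% throughout.

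Counted over all pairs, 6 of 18 CREB regions shared by the untreated and glucagon lists ranked higher with glucagon, 3 at Nr4a1 and 3 at Sik1, against 24.6% of all 20606 such pairs. Of the 18, 2 ranked lower, against 28.3% of all. By rank in the whole lists, which differ in length, 3 of 18 ranked higher (Nr4a1 +0.4 and +6.9 kb and Sik1 -17.9 kb) and 4 of 18 lower, so the balance of the counts depends on the ranking. By z-score 6 were higher and 3 lower. A 2-fold change in rank fraction, a rule chosen after the data were seen, counted 7 of 18 higher, against 9.18% of all pairs, and 2 of 18 lower, against 7.29%. The share by the 10 point rule was thus not far from the background, and the share by the 2-fold rule was above it. A 2-fold change takes fewer points near the top, where Nr4a1 -6.9 kb counted with 2.3 points and Crem +0.4 kb with 2.33. The pairs at these loci stood high, at a median percentile of 78.05 in untreated cells and 94.73 with glucagon. The background by the 2-fold rule, over pairs of every rank, is therefore not a like comparison. From glucagon to both hormones 3 of 26 pairs ranked higher (21.7% of all) and 3 ranked lower (25.8%). Of those 3 higher pairs, 2 come from the Sik1 +0.2 kb site, which is 3 regions in the glucagon list and 1 in the other, so only Sik1 +13.7 kb is a higher pair of single regions. By rank in the whole lists 6 of 26 were higher and 0 lower, and by z-score 3 higher and 5 lower. From untreated cells to both hormones 6 of 22 pairs ranked higher (24.4%) and 4 ranked lower (33.6%), while whole-list ranks gave 4 higher and 4 lower, and z-scores 6 higher and 7 lower.

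The same CREB regions recurred across hepatocyte treatments. Of the untreated regions 18 of 25 were found with glucagon, against 43.3% of all, and 20 of 28 glucagon regions were found in untreated cells, against 74.0%. Between the hormone lists, 26 of 28 glucagon regions were found with both hormones (81.4% of all) and 23 of 31 in the reverse direction (52.3%). Of the 31 regions with both hormones, 22 were in the untreated list (60.7%). The glucagon regions at these loci were thus shared with untreated cells no more often than the list as a whole.

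GR, the nuclear receptor for corticosterone, was analysed here only in hepatocytes given both hormones. Of its 17 regions 6 were at Nr4a1, 3 at Crem, 7 at Sik1 and 1 at Fos. CREB was present under the same hormones at 14 of the 17, against 42.7% of all GR regions: 4 of 6 at Nr4a1, 2 of 3 at Crem, 7 of 7 at Sik1 and 1 of 1 at Fos. Conversely 14 of 31 CREB regions had GR, against 11.4% of the CREB list.

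The densest GR region of these loci was at Sik1 -17.9 kb, at rank 208 of 11892 (1.75%), the same site that had the largest CREB shift with glucagon. Sik1 +13.7 kb followed at 566 (4.76%), then Crem +56.7 kb at 636 (5.35%), Crem +0.4 kb at 966 (8.12%) and Sik1 -6.1 kb at 1154 (9.70%). These 5 made up the GR regions in the upper 10%. The Nr4a1 sites with CREB were lower in the GR list: +6.9 kb at 1251 (10.5%), +13.1 kb at 1389 (11.7%), -6.9 kb at 2398 (20.2%) and +0.4 kb at 3363 (28.3%). The remaining Sik1 sites were +0.2 kb at 1264 (10.6%), +12.5 kb (chr17:31979842-31981067) at 1385 (11.7%), -2.2 kb at 1737 (14.6%) and -7.5 kb at 2412 (20.3%). GR without CREB was at Crem +75.8 kb (chr18:3261638-3262715) at 2787 (23.4%), Nr4a1 +22.4 kb (chr15:101106273-101106524) at 7002 (58.9%) and Nr4a1 +70.7 kb (chr15:101154585-101154882) at 8247 (69.4%).

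At Fos GR had 1 region, fewer than at each other locus. Of the 6 Fos CREB regions under both hormones 1 had GR, against 11.4% of the whole CREB list. The single Fos GR region (chr12:86809619-86809878), at the merged site named -4.2 kb, was at rank 4148 (34.9%). CREB was there at 5823 (20.6%) under glucagon and 9392 (22.3%) under both hormones, with none in untreated cells. The 3 dense Fos CREB sites, at +1.1, +13 and -17.7 kb, had no GR region, nor had Sik1 -15.2 kb. All 4 were in the upper 10% of the CREB list under both hormones. The share with GR over all CREB regions of that upper 10% was not computed.

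Of the 10 CREB pairs of untreated and glucagon cells that overlapped GR, 5 ranked higher with glucagon, and of the 8 pairs without GR, 1 did. Over all pairs these shares were 50.7% of 3557 with GR and 19.1% of 17049 without, so the loci lay close to the background in this respect. The GR list comes from cells given both hormones, and no GR list of cells given glucagon alone was analysed here.

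**Figure D3:**
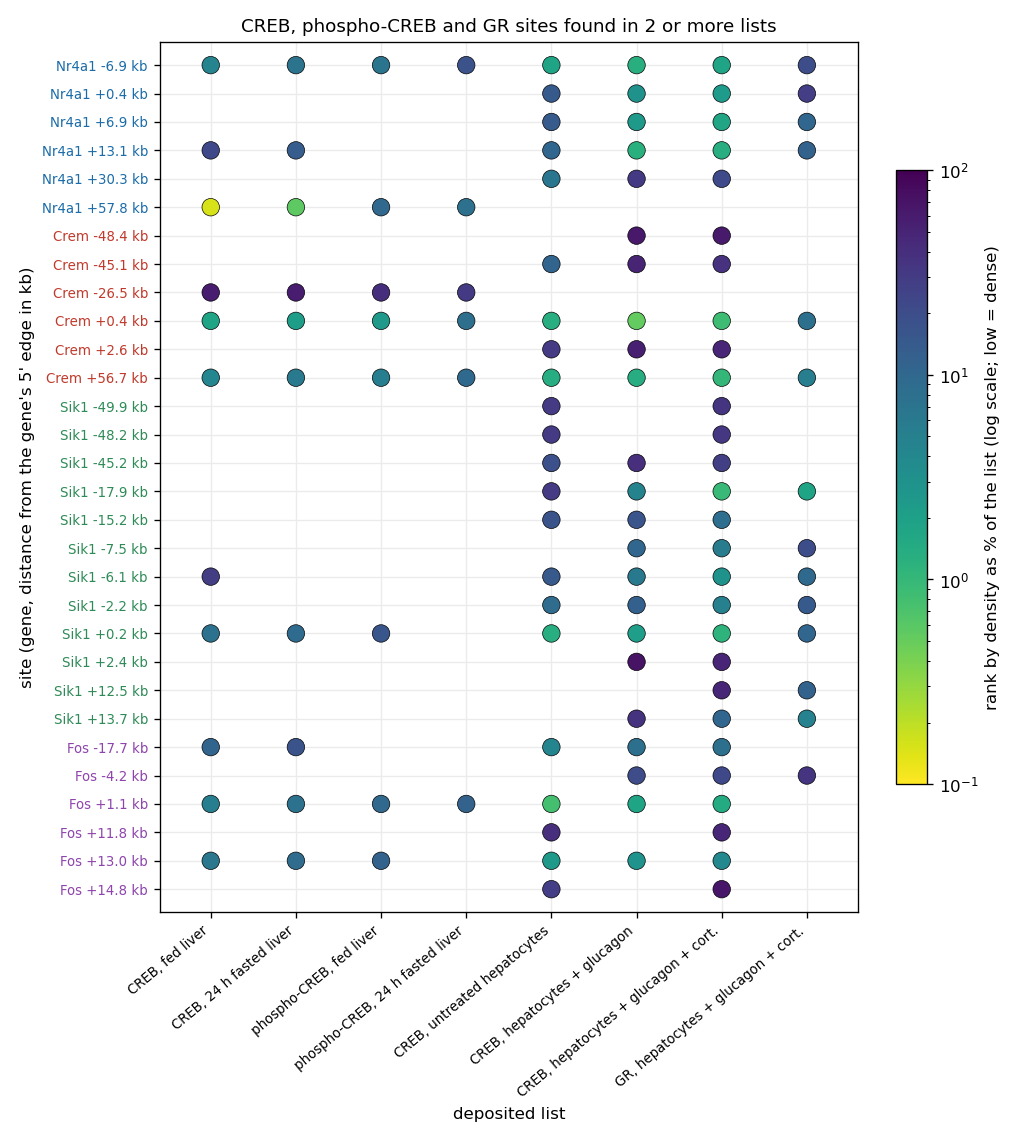
CREB, phospho-CREB and GR sites found in 2 or more lists (rows, named by gene and distance from the 5' edge in kb) against the 8 factor lists (columns), coloured by rank as a percent of the list on a log scale. Rows with 8 points are Nr4a1 -6.9 kb, Crem +0.4 kb and Crem +56.7 kb, and 2 rows, Nr4a1 +57.8 kb and Crem -26.5 kb, have points in the 4 liver lists only.

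In liver, CREB was at nearly the same sites in fed and fasted animals. In whole tissue, a change in the number of bound cells and a change in the signal of each cell cannot be told apart. Of 11 fed regions 10 were in the fasted list, against 53.0% of the whole fed list, and all 10 fasted regions were in the fed list, against 61.3%. The 1 region not shared was Sik1 -6.1 kb, at rank 3818 of 13142 (29.1%) in fed liver. Of the 10 pairs 1 ranked higher after fasting (13.2% of all pairs) and 0 ranked lower (14.3%). By the 2-fold rule, 0 ranked higher (1.25%) and 1 ranked lower (1.38%).

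The pair that ranked higher after fasting was Nr4a1 +13.1 kb, at 2939 of 13142 (22.4%) in fed and 1525 of 11339 (13.5%) in fasted liver, or 19.3 points among shared regions. By rank in the whole lists the move was below 10 points. In glucagon-treated hepatocytes this site and Nr4a1 -6.9 kb had nearly equal ranks, 351 and 360 by density, the best of the Nr4a1 sites. By z-score their order was reversed, at 477 and 470.

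The pair counted as lower by the 2-fold rule was Nr4a1 +57.8 kb, given below. By z-score 2 of 10 pairs ranked lower after fasting. The shifts of the other 8 pairs by density were under 10 points and under 2-fold. Crem +0.4 kb was at 233 (1.77%) in fed and 246 (2.17%) in fasted liver, and Crem +56.7 kb at 552 (4.20%) and 670 (5.91%). Nr4a1 -6.9 kb was at 590 (4.49%) and 806 (7.11%). Fos +1.1 kb was at 701 (5.33%) and 837 (7.38%), Fos +13 kb at 850 (6.47%) and 1011 (8.92%), and Fos -17.7 kb at 1421 (10.8%) and 1959 (17.3%). Sik1 +0.2 kb was at 1000 (7.61%) and 1037 (9.15%).

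A pair of liver sites had no counterpart in hepatocytes. Nr4a1 +57.8 kb (chr15:101141508-101142086) was the densest CREB region of these loci, at rank 20 (0.152%) in fed and 63 (0.556%) in fasted liver, with densities of 2659 and 347.3 on the authors' scale. It was 1 of 33 fed liver CREB regions with a density over 1000, in a list with a median of 8.13. Phospho-CREB was there at ranks 755 of 7669 (9.85%) in fed and 534 of 6812 (7.84%) in fasted liver, but no hepatocyte CREB, GR or liver H3K27ac region. Crem -26.5 kb (chr18:3364226-3364759) had the same presence and low density, at 7704 (58.6%) and 6652 (58.7%) for CREB and 3104 (40.5%) and 2139 (31.4%) for phospho-CREB.

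Apart from these, liver CREB was also found in hepatocytes. Of the 11 fed liver regions 9 were in the untreated hepatocyte list, against 48.9% of the whole liver list, and of the 10 fasted regions 8 were in the list with both hormones, against 44.7%. Nr4a1 +57.8 kb and Crem -26.5 kb are the 2 exceptions in both comparisons.

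Phospho-CREB lay on CREB at every one of its regions. All 9 fed regions overlapped fed liver CREB, against 51.3% of all phospho-CREB regions, and all 6 fasted regions overlapped fasted liver CREB, against 47.0%. Of the 9 fed regions 6 were found after fasting (38.5% of all), and all 6 fasted regions were found in fed liver (43.3%).

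Phospho-CREB regions found in fed liver only were at Sik1 +0.2 kb, rank 1199 of 7669 (15.6%), at Fos +13 kb, rank 864 (11.3%), and beside the Crem +56.7 kb site, which was 2 regions in fed liver and 1 in fasted liver. Sik1 had no phospho-CREB region in fasted liver. Total CREB was present at Sik1 +0.2 kb and Fos +13 kb in both states, as given above. Because the lists carry no value per library, absence from a list shows only that no region was called there.

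Among the 6 phospho-CREB pairs, 0 ranked higher after fasting (16.1% of all pairs) and 2 ranked lower (17.8%). These were Crem +0.4 kb, from 185 of 7669 (2.41%) to 556 of 6812 (8.16%), and Nr4a1 -6.9 kb, from 536 (6.99%) to 1192 (17.5%). Crem +56.7 kb, from 413 (5.39%) to 652 (9.57%), and Fos +1.1 kb, from 764 (9.96%) to 770 (11.3%), stayed within 10 points. The count depends on the ranking: by z-score 4 of 6 ranked lower and 1 higher, and by rank in the whole lists 1 of 6 ranked lower and 0 higher.

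H3K27ac regions merged into 26 sites, of which 18 were in all 3 liver lists. The same share over all H3K27ac sites was not computed. The densest H3K27ac site in the Sik1 window lay in the 5' part of the gene (chr17:31988410-31992805), and its rank differed between the lists. It was at 559 of 29917 (1.87%) in fed liver, 7624 of 47777 (16.0%) after 10 h and 347 of 32103 (1.08%) after 24 h, with densities of 88.3, 34.0 and 96.1 on the authors' scale. The fed and 24 h lists were thus alike here and the 10 h list stood apart. By the list names, the fed and 24 h libraries were numbered consecutively, whereas the 10 h libraries had separate numbers. In every H3K27ac comparison with 10 h, feeding state and library set can therefore not be told apart. The neighbouring Sik1 region at -0.7 kb (chr17:31993009-31994414) was at 10130 (33.9%), 23304 (48.8%) and 4810 (15.0%). A further Sik1 region at -15.0 kb (chr17:32007078-32008954), which lies at the CREB site at -15.2 kb, was at 11617 (38.8%) in fed liver and 7340 (22.9%) at 24 h and was not in the 10 h list.

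At Crem the region over the start of the gene (chr18:3334769-3338666) was at 1316 (4.40%), 5223 (10.9%) and 885 (2.76%). The densest H3K27ac region of that window, and of all 4 loci in each of the 3 lists, was at -45.3 kb (chr18:3382619-3384066), at 515 (1.72%), 714 (1.49%) and 202 (0.629%). It overlaps the hepatocyte CREB site at -45.1 kb, and Cul2 is the next gene after Crem on the forward strand in the GRCm38.p6 gene order. Crem +57.3 kb, over the CREB site at +56.7 kb, was at 1619 (5.41%), 2025 (4.24%) and 1883 (5.87%).

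At Nr4a1 no H3K27ac region lay within the approximate gene span in any of the 3 states. The dense regions were at +30.6 kb (chr15:101113593-101115534), at 631 (2.11%), 2646 (5.54%) and 462 (1.44%), and at -6.8 kb (chr15:101076038-101078323), at 1110 (3.71%), 4988 (10.4%) and 2741 (8.54%). On the forward strand in the GRCm38.p6 gene order Atg101 is the next gene after Nr4a1, on the side of the +30.6 kb region. At Fos the region over the gene (chr12:86813915-86815266) was at 3036 (10.2%), 2834 (5.93%) and 944 (2.94%), densest in rank at 24 h.

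Between fed liver and 10 h of fasting 11 of 20 paired regions ranked lower at 10 h, against 27.6% of all pairs, and 1 ranked higher, against 23.1%. From 10 h to 24 h 7 of 19 ranked higher (24.0%) and 2 ranked lower (26.9%). These counts depend on the ranking. By rank in the whole lists, which differ in length, 2 of 20 ranked lower and 8 higher at 10 h than in fed liver, and 2 of 19 ranked higher and 6 lower at 24 h than at 10 h. The 2 that kept their direction in both contrasts were the Sik1 regions in the 5' part of the gene and at -0.7 kb. By the 2-fold rule 6 of 20 ranked lower at 10 h (9.02% of all pairs) and 0 higher (9.36%), and from 10 h to 24 h 6 of 19 ranked higher (9.56%) and 0 lower (9.36%). Between fed and 24 h fasted liver 4 of 22 pairs ranked higher (19.0%) and 4 ranked lower (22.4%), and by rank in the whole lists 6 ranked higher and 2 lower.

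Most H3K27ac regions of one list were found in another, both at these loci and over the whole lists. Of 23 fed regions 22 were in the 24 h list (85.4% of all) and 20 in the 10 h list (92.6%). Of 24 regions at 10 h 19 were in the 24 h list (54.7%), and of 23 regions at 24 h 21 were in the 10 h list (88.4%). Acetylated chromatin held 7 of the 9 fed phospho-CREB regions, against 18.8% of that list, and 7 of the 11 fed CREB regions, against 38.9%. In the 24 h list it held 18 of the 31 hepatocyte CREB regions with both hormones (44.1% of all) and 5 of the 17 GR regions (21.8%). Of the 6 CREB sites that ranked higher with glucagon, Nr4a1 +0.4, +6.9 and +13.1 kb and Sik1 -17.9 kb lay outside H3K27ac regions of liver, and Sik1 -6.1 and -15.2 kb each lay in such a region in 2 of the 3 lists. The 2 that ranked lower with glucagon, Crem -45.1 kb and Nr4a1 +30.3 kb, lay in one in all 3 lists. Over all regions of the glucagon CREB list, 49.84% lay in fed, 59.0% in 10 h and 50.54% in 24 h H3K27ac regions. The same shares were not computed for all pairs that ranked higher or lower. The H3K27ac lists come from whole liver, not from hormone-treated hepatocytes.

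**Figure D4:**
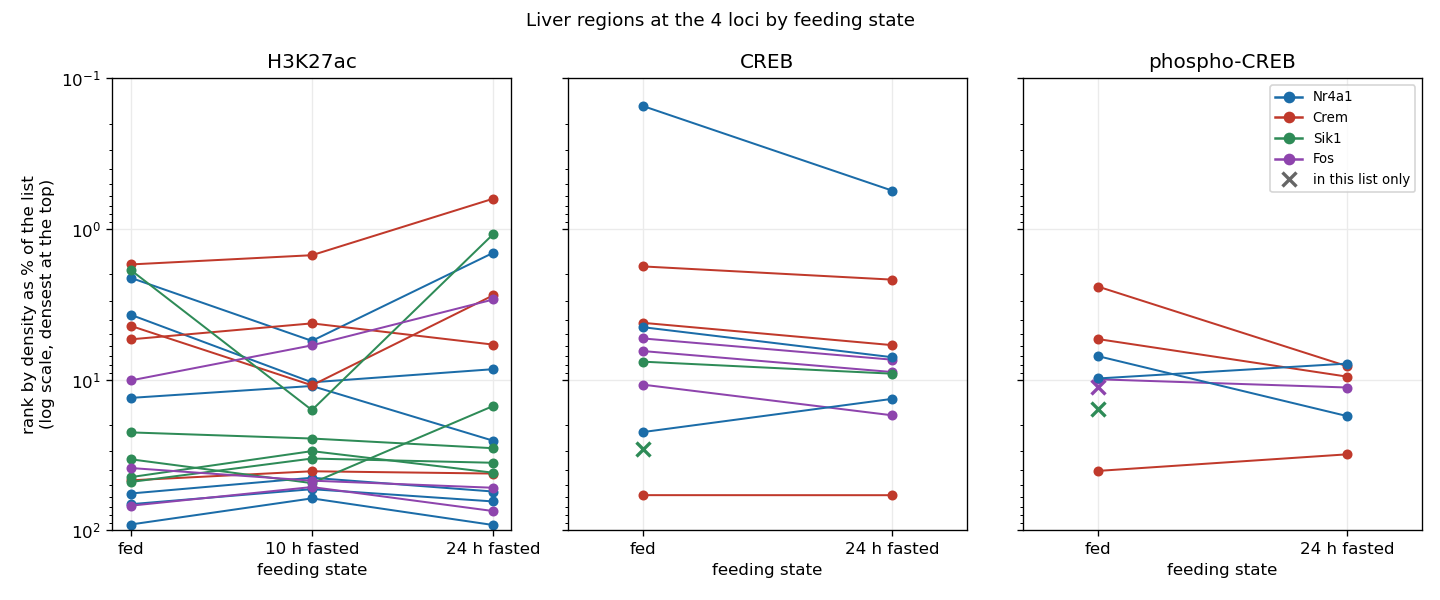
Rank as a percent of the list (y axis, log scale, densest at the top) in liver by feeding state (x axis): H3K27ac sites found in all 3 lists, CREB sites and phospho-CREB sites, with lines joining a site across lists and crosses marking sites found in 1 of the 2 states. The Sik1 H3K27ac line dips to 16.0% at 10 h, while among the CREB lines Nr4a1 +57.8 kb goes from 0.152% to 0.556% and Nr4a1 +13.1 kb from 22.4% to 13.5%, and 2 phospho-CREB sites are present in fed liver only.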

How the data were processed

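Of 13 deposited region lists, 11 were used, 1 per group. The remaining 2, holding 8 value columns, could be tied to no sample and were not used here. The submitters' processing notes name CASAVA 1.8 and build mm9, and an aligner is not named in the sources used here. Per the file headers, the deposited lists give the highest tag density of a region (signal), its z-score (score) and a p-value. The authors' list names speak of hotspot calling, and the scaling of the signal and the score is not stated. The authors' p-value was not used. By their names the H3K27ac lists pool libraries, the liver CREB and phospho-CREB lists rest on 2 of 3 libraries, and the untreated hepatocyte list sets 1 library against itself. What sets the length of a list is not stated.

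Members, lists and rules were chosen with earlier results of these data known. Regions were ranked by density, overlapped by at least 1 base and chained into sites. Given in full were the site in most lists per locus, sites in both liver CREB or both phospho-CREB lists, sites with GR, sites in the upper 10% of 1 list that were absent from another of the same comparison, the densest H3K27ac regions, and H3K27ac regions in the upper 25% that were absent from another list. Other sites, such as Nr4a1 +30.3 kb, Crem -45.1 kb, Sik1 -15.2 kb and their H3K27ac neighbours, were picked after their values were seen. Motifs were searched on both strands of 300 base promoters. Alternatives were other overlaps, equal list lengths, the upper 50% of lists, 10 kb flanks, z-scores, whole-list ranks and other upper shares. A change of 2-fold in rank fraction was added after the data were seen, and it takes fewer percentile points near the top of a list. In simulated data of 28229 regions, modelled on CREB with glucagon, 19789 of 19789 planted overlaps and 100 of 100 planted rank rises were found. The rises were planted without noise and well above 10 points, so full recovery was built in and checks the code only. Python 3.11.15, numpy 2.4.6, pandas 2.3.3 and matplotlib 3.10.9 were used.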

Additional observations from a re-analysis of the deposited data

How the results depend on the processing

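Of 218 recomputed shares, 189 stayed within the 95% Wilson interval of the reported share, which covers counting error only, and 29 moved outside it. Requiring 50% of the shorter region, or allowing a gap of 500 bp, moved none of 22 shares each. The direction of the H3K27ac ranks at 10 h rests on ranking among shared regions. With ranks in the whole lists, 40% of pairs were higher and 10.0% lower at 10 h than in fed liver, and 10.53% higher and 31.58% lower at 24 h than at 10 h; 0.0% of liver CREB pairs were higher after fasting, and 0.0% of hepatocyte CREB pairs were lower with both hormones than with glucagon. With the 2-fold rule, 0.0% were higher and 30% lower at 10 h than in fed liver, 0.0% lower at 24 h than at 10 h, and 0.0% of liver CREB pairs higher after fasting. With 10 kb flanks, no H3K27ac pair was higher at 10 h than in fed liver or lower at 24 h than at 10 h (0.0% each), 100% of fed and of fasted liver CREB regions were found in hepatocytes, and 50% of fed and 60.0% of 24 h fasted H3K27ac regions were in the upper 10%. In the upper 50% of lists, 100% of 24 h H3K27ac regions were found in fed liver. With lists of equal length, 68.42% of CREB regions under both hormones had GR.

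By construction, other upper shares moved the counts of dense regions: with the upper 25%, to 37.5% for H3K27ac at 10 h, 90.0% for fasted liver CREB, 83.33% for fasted phospho-CREB, 64.0% for untreated hepatocyte CREB and 76.47% for GR, and with the upper 5%, to 20.0% for fasted liver CREB, 11.11% for fed and 0.0% for fasted phospho-CREB, and 11.76% for GR. By z-score 0.0% of fasted phospho-CREB and 5.882% of GR regions were in the upper 10%. Since few pairs give wide intervals, some counts of pairs changed by 1.5 times or more without leaving them: by whole-list rank, 3 of 18 higher and 4 lower with glucagon than untreated, 6 of 26 higher with both hormones than with glucagon, 4 of 22 higher with both than untreated, 6 of 22 H3K27ac pairs higher and 2 lower at 24 h than in fed liver, and 1 of 6 phospho-CREB pairs lower after fasting; by z-score, 4 of 6 phospho-CREB pairs and 2 of 10 liver CREB pairs lower after fasting. The cause of these and the other moves was not tested. Rank shifts between CREB and phospho-CREB or GR, and between liver and hepatocyte CREB, had been planned and were not run. No paired analysis was possible because each group has 1 list with no value per library, and for the same reason no library could be left out. Depth is unknown, and absence from a list need not mean absence of binding.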
